A study of Mus musculus with 4 samples.

Results

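Potassium channel genes were examined for Fos binding in mouse colonic mucosa. They were taken by symbol, as the protein-coding genes whose names begin with Kcn, and numbered 94 of the 21631 protein-coding genes that the mm10 gene table places on the autosomes or chromosome X. The symbol alone made a gene a member, although earlier results of these data were known when this family was chosen. Fos was profiled by CUT&Tag, in which an antibody directs the transposase Tn5 to the DNA around the protein and the tagged fragments are sequenced. The 4 libraries came from WT mice and carried 1 shared batch label: 2 from colitis recovered animals and 2 from healthy controls. The colitis recovered animals drank 1 to 1.5% dextran sodium sulfate (DSS), a polymer toxic to the lining of the colon, for 3 cycles (7 days of DSS, then 10 days without it) and were taken 22 days after the final cycle. Colonic mucosa was scraped from the colon after incubation in EDTA.

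The deposited data were 1 list of 178981 peak summits in 108406 regions in which no column names a library, and the sources used here do not say which of the 4 libraries entered it. Colitis recovered and healthy colon therefore could not be compared, and values carry no error between replicates. Sequencing depth of each library was not given in the sources used here. For ranking, the authors' fold enrichment at each summit, a ratio over background, was used, and the number of overlapping fragments behind it was read from its steps. The median summit had a fold of 6.73 and 27 fragments, and the weakest had 10. Intervals are at 95% and cover counting error only, with neighbouring summits of 1 region counted separately. No library of a control antibody was used here, so the part of the signal that comes from open chromatin was not tested. A summit was tied to a gene by distance alone, which does not show that Fos acts on that gene.

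Potassium channels let potassium leave the cell along its gradient and so set the membrane voltage. In the colonic epithelium, basolateral channels supply the driving force with which epithelial cells secrete chloride and absorb sodium. In neurons and muscle, other members end action potentials and set firing rates. The family divides into voltage-gated subunits, calcium- or sodium-activated channels, inward rectifiers, two-pore channels that carry leak current, and auxiliary subunits that have no pore of their own and modify the others. Fos pairs with Jun proteins to form AP-1, a transcription factor induced by growth signals and injury that binds the palindrome TGANTCA.

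The list of main interest held 4 channels of the colonic epithelium. Kcnk5 is a two-pore leak channel opened by alkaline pH. Kcnn4 is the intermediate-conductance calcium-activated channel, found also in lymphocytes and red cells. Kcnq1 is a voltage-gated pore that becomes a constantly open, cAMP-stimulated channel when it joins the auxiliary subunit Kcne3. They were set against 27 channels known mainly from neurons. Each list was drawn from general knowledge of where the genes are used, with the same earlier results known. The lists were not complete, and some channels known from neurons or muscle were in none of them.

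The promoter sequences of the channels that anchor this comparison are given first, since they show the sequence just upstream of the starts against which summits were placed. Each runs from 250 bases before a listed start to 50 bases after it, 5′ to 3′ on the gene's strand, and comes from NCBI RefSeq on GRCm38.p6, the assembly that mm10 names. Capitals mark the 21 bases centred on the strongest Fos summit inside the window in Kcnk5 and Kcnn4, and the TGANTCA match at position 214 of the first Kcne3 window. Kcnk5 lies at chr14:20181733-20182032 on the minus strand, Kcnn4 at chr7:24370013-24370312 on the plus strand, and the Kcne3 windows, for its 2 listed starts, at chr7:100176420-100176719 and chr7:100178433-100178732 on the plus strand. For contrast, Kcnk4 at chr19:6934466-6934765 (minus strand) is the neuronal channel with the most summits per kb, and Kcna2 at chr3:107101317-107101616 (plus strand) is one with none.
Kcnk5: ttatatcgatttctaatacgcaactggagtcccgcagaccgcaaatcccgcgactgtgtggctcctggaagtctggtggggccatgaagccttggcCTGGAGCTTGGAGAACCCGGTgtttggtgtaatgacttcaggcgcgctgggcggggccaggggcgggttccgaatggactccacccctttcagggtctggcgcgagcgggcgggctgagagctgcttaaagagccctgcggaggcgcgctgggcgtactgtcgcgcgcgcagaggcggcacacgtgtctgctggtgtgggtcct
Kcnn4: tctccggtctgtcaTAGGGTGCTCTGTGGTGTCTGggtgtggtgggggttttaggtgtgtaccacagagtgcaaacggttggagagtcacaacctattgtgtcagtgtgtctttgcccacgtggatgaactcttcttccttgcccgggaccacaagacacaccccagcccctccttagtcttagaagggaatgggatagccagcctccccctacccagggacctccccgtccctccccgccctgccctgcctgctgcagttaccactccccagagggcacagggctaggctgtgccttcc
Kcne3 first start: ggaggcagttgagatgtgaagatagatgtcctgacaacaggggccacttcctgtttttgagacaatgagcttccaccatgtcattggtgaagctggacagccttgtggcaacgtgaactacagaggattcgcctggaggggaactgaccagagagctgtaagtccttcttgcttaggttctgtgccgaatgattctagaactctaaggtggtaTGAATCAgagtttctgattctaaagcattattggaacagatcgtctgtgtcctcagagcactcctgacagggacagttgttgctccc
Kcne3 second start: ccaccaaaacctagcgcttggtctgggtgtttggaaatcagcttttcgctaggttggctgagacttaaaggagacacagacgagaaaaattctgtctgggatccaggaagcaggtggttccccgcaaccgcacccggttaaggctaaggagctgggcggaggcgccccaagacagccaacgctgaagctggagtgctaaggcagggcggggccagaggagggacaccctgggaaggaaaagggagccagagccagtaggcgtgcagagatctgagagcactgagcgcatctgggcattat
Kcnk4: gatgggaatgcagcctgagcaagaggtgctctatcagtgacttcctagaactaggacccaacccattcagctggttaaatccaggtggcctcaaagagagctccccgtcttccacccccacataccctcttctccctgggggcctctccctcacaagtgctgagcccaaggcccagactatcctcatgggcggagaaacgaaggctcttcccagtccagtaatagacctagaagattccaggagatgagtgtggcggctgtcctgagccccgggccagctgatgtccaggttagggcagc
Kcna2: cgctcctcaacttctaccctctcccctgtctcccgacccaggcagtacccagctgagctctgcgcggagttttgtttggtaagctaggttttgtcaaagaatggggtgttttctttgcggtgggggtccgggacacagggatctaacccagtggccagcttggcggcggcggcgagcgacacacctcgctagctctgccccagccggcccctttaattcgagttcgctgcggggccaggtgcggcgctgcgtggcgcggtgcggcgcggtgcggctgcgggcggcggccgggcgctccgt

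Neither the Kcnk5 nor the Kcnn4 window held TGANTCA, a motif that reads the same on both strands, although each held a summit. The Kcne3 window that did hold it, upstream of the first listed start, held no summit, and the nearest one lay 2065 bp downstream of that start, beside the second. Over all 94 promoter windows listed for 69 Kcn genes, 4 (4.26%) held the motif, against 1481 of 21045 windows (7.04%) of all protein-coding genes. The others were in Kcnip3 and Kcnip4, which encode calcium-binding partners of voltage-gated channels, and Kcnk2, a leak channel opened by membrane stretch. With the middle base held to the stricter TGACTCA or TGAGTCA, 2 Kcn windows (2.13%), in Kcnip3 and Kcnk2, and 986 of all windows (4.69%) matched, so the capitals in the Kcne3 window mark only the looser form. A summit fell inside 15 of the 94 Kcn windows (16.0%), against 42.4% of all windows, and in none of the 4 that held the motif.

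Fos summits were less often at the ends of potassium channel genes than at those of genes in general. At least 1 summit lay within 1 kb of either boundary of 41 of the 94 Kcn genes (43.6%, Wilson interval 34.0 to 53.7), where 62.0% of all protein-coding genes had one. A summit somewhere in the gene or within 50 kb of it was more often present, for 88 of 94 Kcn genes (93.6%), where 86.3% of all genes had one. Summits among the strongest 10% of the list, with a fold of at least 38.0, lay inside or at the boundary of 17 Kcn genes (18.1%), where 32.7% of all genes had one. By count the neighbourhood was poorer, with a median of 13.5 summits per window in Kcn genes against 16 over all genes. In the pooled flanks there were 0.112 per kb against 0.142 per kb. Kcn genes were longer, with a median of 32691.5 bp against 17329 bp over all genes.

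Starts and ends of transcription were also counted apart. Of the 67 Kcn genes over 2 kb long whose strand was listed, 24 (35.8%) had a summit within 1 kb of the start, where 64.9% of all such genes had one. A summit within 1 kb of the end was found in 8 (11.9%), where 18.1% of all such genes had one. When any listed start was allowed, including starts inside the gene, 27 of 69 Kcn genes (39.1%) had a summit within 1 kb, where 62.2% of all genes with a listed start had one. Both ends were marked in 6 of the 67 genes, the start alone in 18, the end alone in 2 and neither in 41.

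Counted per kb of the gene and 50 kb on each side, Kcn genes carried a median of 0.0588 summits per kb (interquartile range 0.0166 to 0.172), against 0.111 per kb (0.0303 to 0.227) over all genes. The median Kcn gene stood at percentile 34.3 of all genes, and 35 of 94 lay above the median of all genes. The windows together held 1552 assignments of 1495 distinct summits, of which 81 were at a boundary, 438 in a gene interior and 1033 in a flank. Flanks dominated the totals, and only 186 of the 1033 flank summits (18.0%) had the Kcn gene as their nearest protein-coding gene, while 274 (26.5%) lay within 1 kb of another gene's boundary. Across the 94 genes, the Spearman correlation of summits per kb with the number of other genes in the window was 0.63 and with gene length −0.42 (0.03 over all genes), all as descriptions of genes whose windows in part overlap. Windows overlapped in 9 pairs of members involving 17 genes, with 15 summits shared between Kcnip1 and Kcnmb1 and 13 between Kcnk5 and Kcnk16.

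The epithelial channels stood above this low density. All 4 had a boundary summit (Wilson interval 51.0 to 100.0%), against 9 of the 27 neuronal channels (33.3%, 18.6 to 52.2). The share over all genes, 62.0%, lay inside the interval of the 4 and above that of the neuronal channels. All 4 also had a summit of the strongest 10% inside the gene or at its boundary, against 5 of 27 neuronal channels (18.5%). Over all genes that share was 32.7%. Summits per kb of window were 0.635 for Kcnk5, 0.341 for Kcne3, 0.338 for Kcnn4 and 0.212 for Kcnq1, and each stood above the median of all genes. Among neuronal channels the values ran from 0 to 0.531 with a median of 0.0369, and 9 of 27 stood above the median of all genes.

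Pooled over each list, the epithelial channels had 255 summits in 785.6 kb, or 0.325 per kb, against 348 summits in 6596 kb, or 0.0528 per kb, in the neuronal channels. The ratio was 6.15 (5.21 to 7.25). In gene interiors, more than 1 kb from either boundary, the epithelial channels had 107 summits in 377.6 kb (0.283 per kb) and the neuronal channels 85 in 3842 kb (0.0221 per kb), a ratio of 12.8 (9.54 to 17.2). With 1 summit per region, which removes clustering within regions but not between them, the interior ratio was 7.97, below that interval. From medians of single genes it was 41.4. The pooled interior value over all genes was 0.0867 per kb, so the epithelial list lay above it and the neuronal list below it. Both ratios moved outside their intervals when Kcnk5 or Kcnq1 was left out, and stayed inside them without Kcnn4 or without Kcne3. Without Kcnk5 the window ratio was 4.86 and the interior ratio 9.50, and without Kcnq1 they were 8.61 and 38.8. Among genes up to 100 kb long, 3 epithelial channels had 0.454 summits per kb of window against 0.121 in 18 neuronal channels, a ratio of 3.75, while the interior ratio among them was 11.1.

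**Figure D1:**
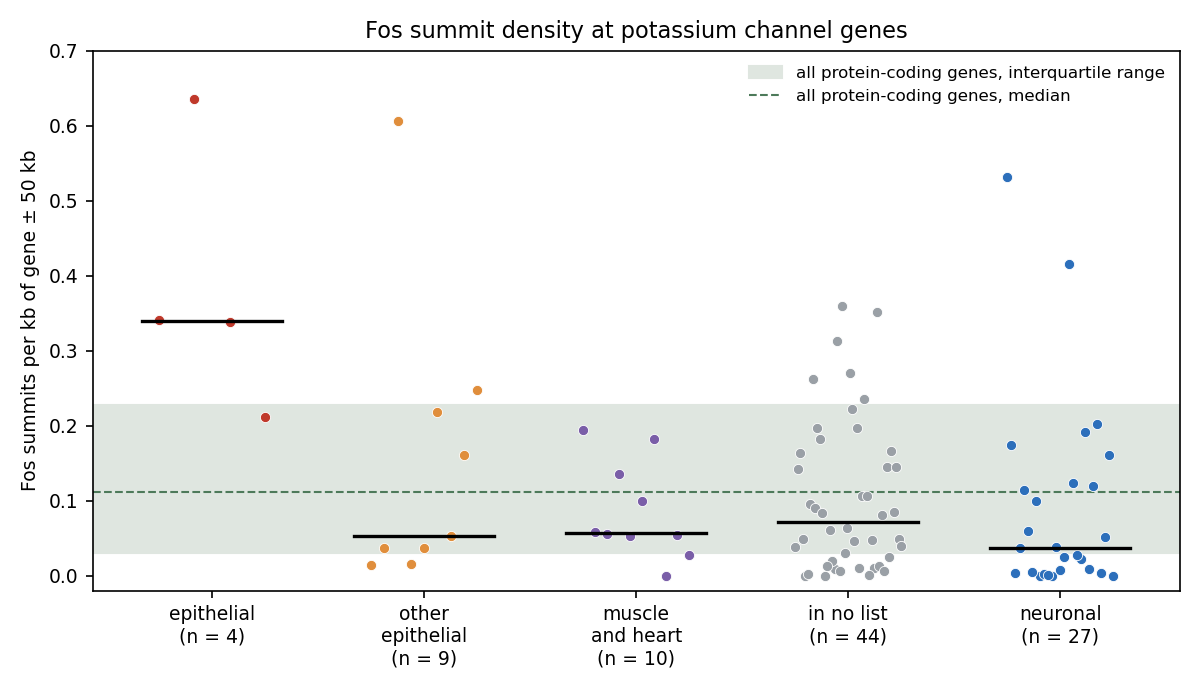
Fos summits per kb of gene and 50 kb on each side (vertical axis) for each of the 94 potassium channel genes (points), grouped by where the channel is known to be used. Black lines are list medians, and the dashed line and band are the median and interquartile range of all protein-coding genes. All 4 epithelial channels lie above the dashed line at 0.111, while the neuronal median is 0.0369 and the neuronal points reach up to 0.531.

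Kcnk5 had the densest Fos signal of any potassium channel gene. Its window on chromosome 14 (gene at chr14:20140057-20181782) held 90 summits in 42 regions, 0.635 per kb, which is percentile 99.2 of all protein-coding genes. No other protein-coding gene overlapped the window, and Kcnk5 was the nearest protein-coding gene of 73 of the 90 summits. Of these summits 6 were at a boundary, 36 in the interior and 48 in the flanks, and the surrounding sequence from 50 to 250 kb away held 0.100 per kb. The signal was thus concentrated around a gene with no close neighbour.

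The summits within 1 kb of the Kcnk5 start were of middling strength. Their folds were 27.2 at 144 bp upstream of the start, 16.6, 10.8 and 4.81, and a summit of fold 29.6 lay 592 bp beyond the end of the gene. Stronger summits lay inside the gene and around it. The strongest interior summit, at position 20165720, reached a fold of 69.5 from 288 fragments (256 to 323), and the next had folds of 58.0 and 45.2. The strongest flank summits were a fold of 94.0 at 4772 bp past the end of the gene and a fold of 89.2 at 26854 bp upstream of its start.

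Kcnn4 had its strongest summit at the start of transcription. The gene spans chr7:24369826-24385212, and the summit at position 24370037, 226 bp upstream of its listed start and inside the printed promoter, reached a fold of 108.0 from 448 fragments (407 to 491). That was the highest fold at a boundary of any potassium channel gene, ahead of Kcnn1 with 45.7 and Kcnj2 with 43.5. Inside Kcnn4 there were 6 summits, with folds of 52.2, 33.0 and 18.0 at the strongest 3. The flanks held 30 more, the strongest with a fold of 86.1 inside the neighbouring gene Smg9, and 17 of the 39 summits in the window had Kcnn4 as their nearest protein-coding gene. Across the window the density was 0.338 per kb, against 0.2025 per kb at 50 to 250 kb.

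Kcne3, the partner of Kcnq1, had the densest interior of the 94 genes. The gene is only 8363 bp long (chr7:100176507-100184869) and held 9 interior summits, or 1.41 per kb. Its boundary summits were weak, with folds of 9.14 and 2.89, and both lay at the end of the gene. The strongest summit of its own reached a fold of 54.4 from 225 fragments (197 to 256) and lay 52 bp downstream of the second listed start, 2176 bp inside the gene, just past the last base of the second window printed above. By the lower boundary alone Kcne3 would count as a gene without a start summit, and by its second start it has one. The flanks held 26 summits, including folds of 74.8 inside Pgm2l1 and 57.2 inside Lipt2, and 14 of the 37 summits in the window were nearest to Kcne3.

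Kcnq1 carried many summits over a long gene. It spans chr7:143106877-143427050 and its window held 89 summits in 57 regions, of which 5 were at a boundary, 56 in the interior and 28 in the flanks. The density of 0.212 per kb was percentile 72.4 of all genes and close to the 0.1775 per kb of the sequence 50 to 250 kb away, so Kcnq1 stood out by its count more than by its density. All 5 boundary summits were at the lower-coordinate end, with folds of 18.5, 16.1, 6.01, 5.29 and 4.33, and the strand of Kcnq1 was not in the promoter table. The strongest interior summits had folds of 71.4 (296 fragments, 263 to 332), 67.8, 66.4 and 55.6.

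Summits inside Kcnq1 were unevenly spread. When the gene was cut into 10 equal parts from the lower coordinate up, the parts held 18, 8, 8, 1, 0, 4, 4, 3, 1 and 12 of the 59 summits inside it. The first 3 parts held 34 and the last 3 held 16. The middle of the gene contains Kcnq1ot1, an antisense noncoding RNA of the imprinted domain, whose 83.4 kb span (chr7:143213111-143296547) held 3 summits with a highest fold of 20.9. The strongest flank summits, folds of 100.8 and 98.4, lay inside Slc22a18 and Tssc4, so they belong to the sequence of neighbouring genes.

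**Figure D2:**
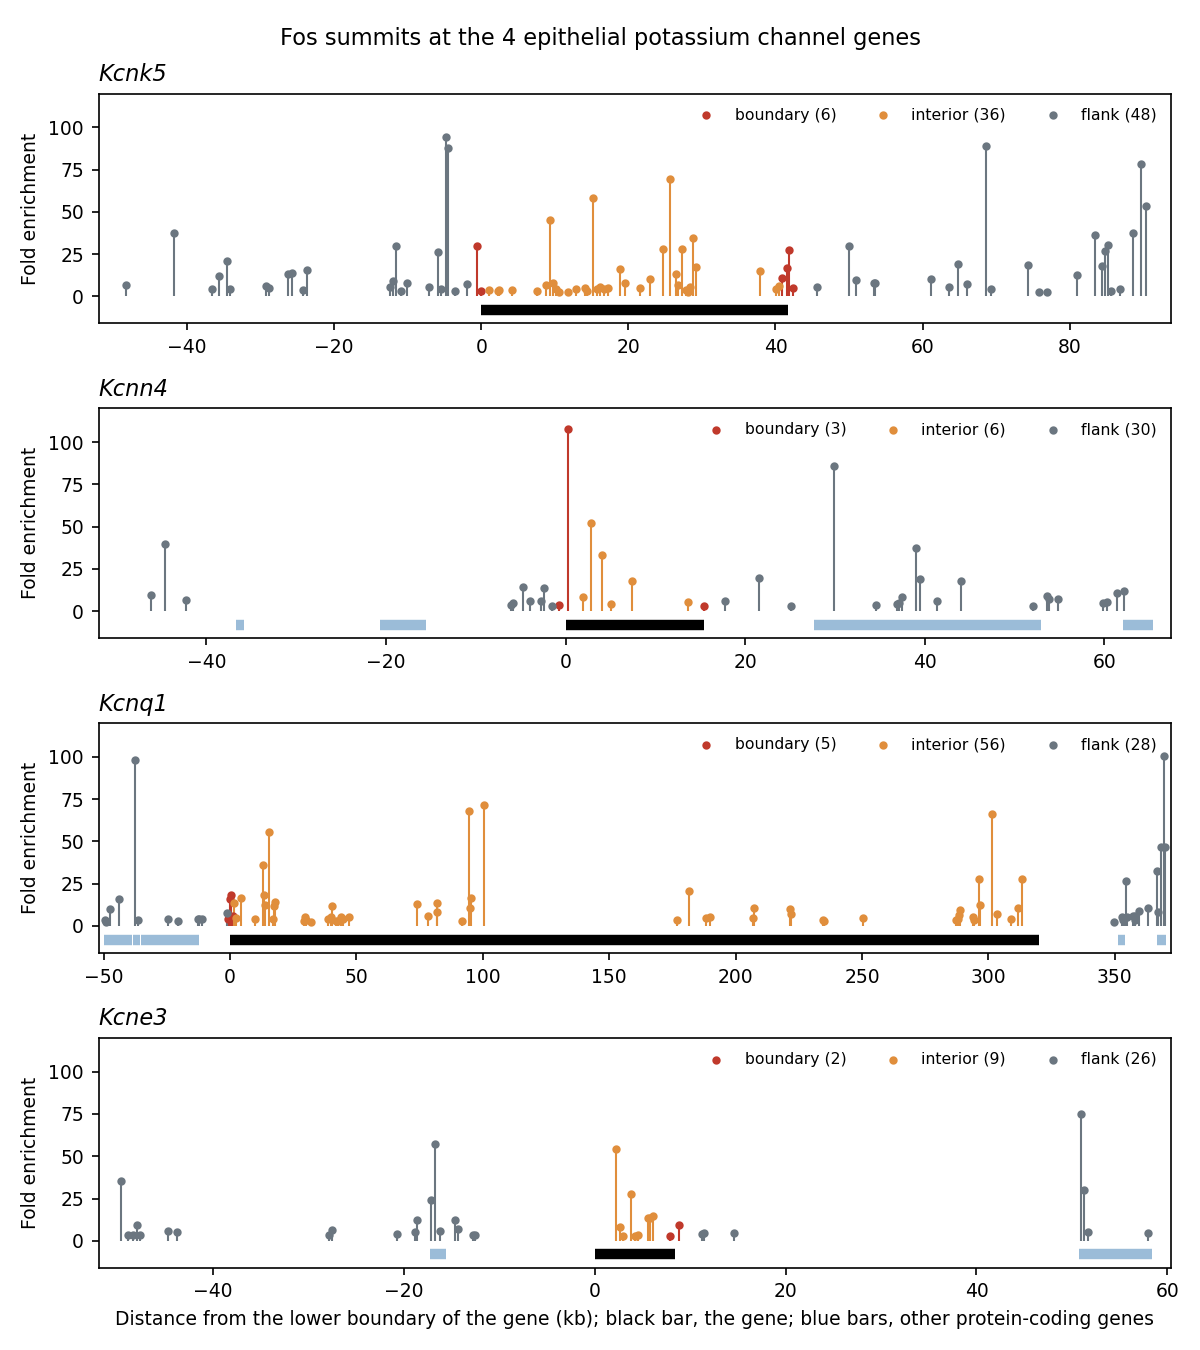
Fold enrichment of each Fos summit (vertical axis) by distance in kb from the lower boundary of the gene (horizontal axis) at Kcnk5, Kcnn4, Kcnq1 and Kcne3. Red, orange and grey mark boundary, interior and flank summits, the black bar is the gene and blue bars are other protein-coding genes. Kcnk5 has no blue bar in its window, Kcnn4 has its tallest summit (fold 108.0) at its lower boundary, and the summits of Kcnq1 gather toward both ends of the gene.

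Set beside their own families, Kcne3, Kcnk5 and Kcnn4 led in interior density, by margins that differed. Kcne3 had 1.41 summits per kb of interior, against at most 0.267 (Kcne2) in the other members of its family, which assist voltage-gated pores in heart, ear and stomach. Kcnk5 had 0.906, against 0.856 in Kcnk1 and a median of 0 over 13 other two-pore channels. Kcnn4 had 0.448, against 0.390 in Kcnn1. In window density Kcnn1 (0.416 per kb) exceeded Kcnn4 (0.338 per kb). The interior counts behind these values were 36 in Kcnk5 and 30 in Kcnk1, 6 in Kcnn4 and 8 in Kcnn1, and 9 in Kcne3 and 1 in Kcne2. The ratio to the next gene was 1.06 (0.634 to 1.78) for Kcnk5, 1.15 (0.329 to 3.78) for Kcnn4 and 5.30 (0.734 to 232.1) for Kcne3, so the first place of each was within counting error.

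**Figure D3:**
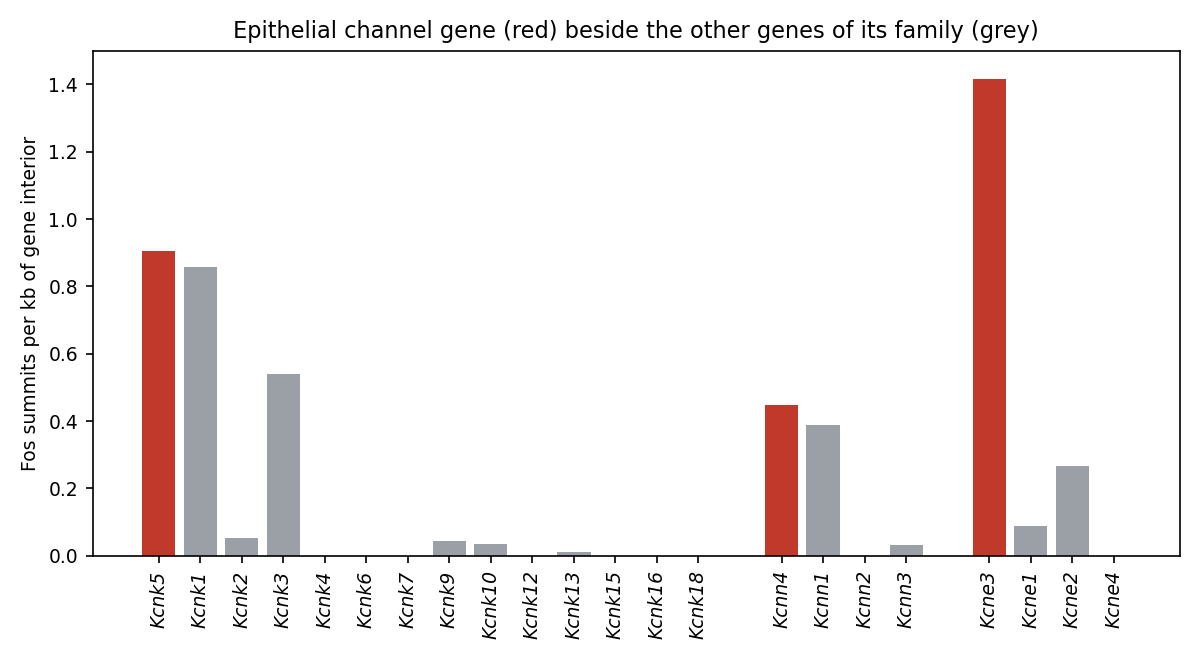
Fos summits per kb of gene interior (vertical axis) for Kcnk5, Kcnn4 and Kcne3 (red) and the other genes of their families (grey), with families in separate groups. The red bars at Kcnk5 (0.906), Kcnn4 (0.448) and Kcne3 (1.41) are the tallest of their groups, with the next relatives close behind at Kcnk1 (0.856) and Kcnn1 (0.390).

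The two-pore channels had the highest median density of the 5 structural classes, 0.137 per kb over 14 genes. Of the 14 genes in this class 7 had a boundary summit (Wilson interval 26.8 to 73.2%), where 62.0% of all genes had one. High counts there had different sources. Kcnk6, a weakly conducting channel of epithelia and vessels, had 67 summits in its window, second to Kcnk5 in that class, but 66 were in the flanks and 2 had Kcnk6 as their nearest protein-coding gene. Kcnk4, the mechanically opened channel of sensory neurons known as TRAAK, had 58, of which 56 were in the flanks, 1 was nearest to Kcnk4 and the strongest (fold 185.5) lay 36 bp from Esrra. Neither gene held an interior summit.

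Kcnk1, by contrast, held 30 of its 34 summits in the interior, and Kcnk3 held 19 of 36 there. Kcnk1, a leak channel of kidney and other epithelia, had 30 interior summits and no boundary summit, and its strongest, at position 126007871 of chromosome 8, had a fold of 165.7 and 688 fragments, the highest inside any of the 94 genes. A listed start of Kcnk1 that lies 1447 bp inside the gene had a summit of fold 20.2 at 261 bp downstream. Kcnk3, an acid-sensitive leak channel of neurons and of several other tissues, had a highest interior fold of 55.6. Its other summits were 15 in the flanks and 2 at a boundary. Kcnk7, a relative that forms no known current, had 28 summits, of which 26 were in the flanks. The other 8 members of the class had at most 24 summits in their windows.

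Among the 8 calcium- or sodium-activated channels, 5 had a boundary summit (62.5%, near the 62.0% of all genes) and the median density was 0.0582 per kb. Kcnn1, a small-conductance channel of neurons, had 51 summits, 39 in the flanks, with folds of 317.0 inside Mast3 and 45.7 just outside the start of its span. Kcnma1, the large-conductance channel through which colonic epithelium secretes potassium and which also relaxes smooth muscle, had 41 interior summits over 712.8 kb. All 43 summits of its window were nearest to it, and the strongest had a fold of 115.7. Its density of 0.0529 per kb was percentile 32.5 of all genes, so its high count came with a long gene. Kcnn2, a small-conductance channel of neurons and heart, had no summit over 417.1 kb and both flanks. The other 4 members of the class had 1 to 16.

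Of the 40 voltage-gated subunits 14 had a boundary summit (35.0%, where all genes had 62.0%), and the median density was 0.0538 per kb. After Kcnq1, the highest counts were 37 for Kcna7, a channel of muscle, and 35 for Kcng4, a subunit that modifies other voltage-gated pores, with 32 and 34 of them in the flanks. Kcnf1, another modifying subunit, had a start summit of fold 39.0, and Kcnv2, a modifier known from the retina, had a boundary summit of fold 18.0 and a flank summit of fold 200.8 with no other protein-coding gene in its window. Kcnh8, a slowly gating channel of the brain, had a boundary summit of fold 16.6 and an interior summit of fold 122.4. Kcnh1, an ether-a-go-go channel of the brain, had 24 interior summits, 1 of them with a fold of 26.7 at 2 bp from a start listed 1633 bp inside the gene. Kcnh2, the cardiac channel that ends the action potential, had 24 summits with a highest interior fold of 23.8. The other 24 members of the class not described here or below had 1 to 30 summits in their windows.

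Several long voltage-gated genes of neurons were nearly empty. Kcnd2, the A-type channel of dendrites, had 5 summits with 514.5 kb of gene, and Kcnb2, a delayed rectifier, had 2 with 436.8 kb. Kcnq3 and Kcnq5, relatives of Kcnq1 that carry the M-current of neurons, each had 1 summit in their windows, with genes of 300.3 and 564.3 kb. Kcna2 and Kcna4, which speed repolarization in axons, had none, like the silent subunits Kcns2 and Kcnv1. With Kcnn2 and Kcnj3, the atrial and neuronal channel opened by G proteins, these were the 6 members without a summit in their windows, and 30 members had 5 or fewer. Kcnj3 spans 186.3 kb and had none in the sequence 50 to 250 kb away either.

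The 15 inward rectifiers had a median of 0.0540 per kb, and 5 had a boundary summit (33.3%, where all genes had 62.0%). Kcnj2, which holds the resting potential of muscle and heart cells, had 11 summits, of which all were nearest to it, and 1 at its start had a fold of 43.5. Kcnj14, a rectifier known from motor neurons, had 39 and Kcnj10, a channel of glia and kidney, had 29, but for each only 2 were nearest to it. Kcnj4, a strong rectifier of brain and heart, had 26. The other 11 members ranged from 0 to 19 summits, with Kcnj3 at the low end.

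The 17 auxiliary subunits had a median of 0.0905 per kb, and 10 had a boundary summit (58.8%, near the 62.0% of all genes). Kcnip1, a calcium-binding partner of A-type channels, had 42 summits, 35 of them interior, over a gene of 364.0 kb. Kcne1, the partner of Kcnq1 in heart and ear, had 22, of which 20 were in the flanks. Kcnab3 and Kcnab2, cytoplasmic beta subunits, had boundary summits with folds of 20.4 and 18.0. Kcnab1 had an interior summit of fold 70.0 in a window of 10 summits, and Kcnmb3, a beta subunit of Kcnma1, an interior summit of fold 48.1. Kcnmb1, its smooth muscle beta subunit, lies inside the span of Kcnip1 and shared all 15 of its summits with it. Kcnip4 had 1 summit with a gene of 1136 kb, and the other 8 members of the class had 1 to 18.

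**Figure D4:**
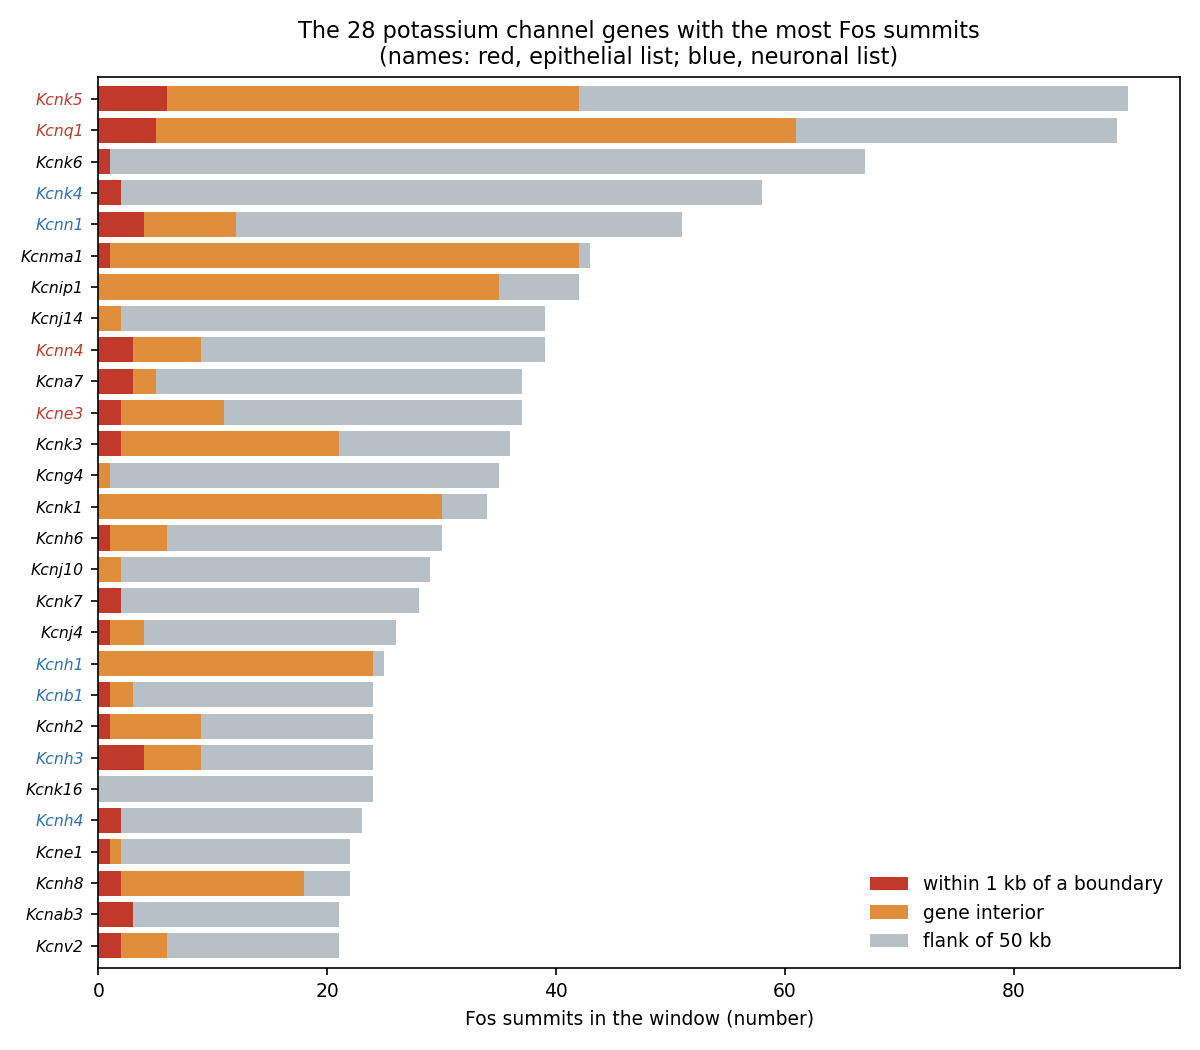
Number of Fos summits in the window (horizontal axis) of the 28 potassium channel genes with the most summits, split into those within 1 kb of a boundary (red), in the interior (orange) and in the flanks (grey). Names in red are the epithelial list and names in blue the neuronal list. Kcnk5 (90) and Kcnq1 (89) lead, and the bars of Kcnk6 and Kcnk4 are almost wholly flank.

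The other lists of channels did not share the density of the epithelial channels. Among 9 further channels known from epithelia, such as Kcnk1, Kcnk6 and Kcnma1, 4 had a boundary summit, 2 had a summit of the strongest 10% of their own and the median density was 0.0529 per kb. Among 10 channels of muscle and heart, 5 had a boundary summit, 1 had a summit of the strongest 10% and the median was 0.0572 per kb. The 44 members in no list had a median of 0.0719 per kb. They include channels described above as known from neurons, brain or muscle. Examples are Kcnj14 (0.360 per kb), Kcnj4 (0.197), Kcnh8 (0.0462), Kcnn2 (0) and Kcna7 (0.351). The values of the neuronal and muscle lists therefore depend on which genes were listed. Of the 9 further channels known from epithelia, 4 lay above the median of all genes, as did 35 of the 94 Kcn genes. Pooled, these 9 had 0.111 summits per kb of window and 0.0826 per kb of interior. Both values lay below those of the 4 epithelial channels (0.325 and 0.283) and above those of the neuronal channels (0.0528 and 0.0221).

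Genes that work with these channels in colonic ion transport were counted in the same way. Of 15 such genes, 13 had a boundary summit (86.7%, Wilson interval 62.1 to 96.3, where all genes had 62.0%) and 11 had a summit of the strongest 10% of their own (73.3%, where all genes had 32.7%). Their median was 0.218 summits per kb, against 0.111 over all genes. The difference was not tested. Atp1b1, a subunit of the sodium pump that loads the cell with potassium, had 0.520 per kb and a boundary fold of 142.2. Scnn1a, a subunit of the epithelial sodium channel, also had 0.520 per kb, with an interior fold of 129.2. Scnn1b and Scnn1g, subunits of the same channel, had 0.117 and 0.0970 per kb. Clcn2, a chloride channel, had a boundary fold of 218.2, and Cftr, the chloride channel of crypt secretion, had 33 interior summits with a highest fold of 83.7. Slc12a2, which brings chloride into secreting cells, had 0.0891 per kb, and the 2 without a boundary summit were Best2 and Slc4a4.

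Markers of the tissue were read from the same list of summits. All 6 epithelial marker genes had a boundary summit, with a median of 0.434 summits per kb, and 5 had a summit of the strongest 10% of their own. The markers of other cells were 1 of 6 with a boundary summit for smooth muscle (median 0.188 per kb), 5 of 8 for enteric neurons and glia (0.0914) and 2 of 6 for leukocytes (0.162). Beside the 62.0% and 0.111 per kb of all genes, the share for enteric neurons and glia was about the same, and the densities for smooth muscle and leukocytes were higher. Of these genes only 1, a leukocyte marker, had a summit of the strongest 10% of its own, where 32.7% of all genes had one. The leukocyte marker Ptprc had no summit in its window. How far other cells of the mucosa contributed to the summits at Kcnn4, which lymphocytes also express, was not tested.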

How the data were processed

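Per the submitters' processing notes, Bowtie2 was the aligner, mm10 the build and MACS2 the peak caller, without versions. The deposited narrowPeak list held, for each summit, the authors' score, fold enrichment (a linear ratio over background), −log10 p-value and −log10 q-value. The lowest −log10 q in the authors' deposited table was 1.80. Which libraries entered it was not given in the sources used here. All folds were multiples of 0.2405, the step of (fragments + 1) over a background of 3.16 fragments + 1, and a Poisson p recomputed from those fragments equalled the deposited −log10 p within 0.01 at 100% of 167414 summits, the others being too extreme to compute. Summit positions are 1-based.

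Genes came from an NCBI RefSeq table of GRCm38.p6. A summit within 1 kb of a gene's own boundary was a boundary summit, one deeper inside an interior summit, and one within 50 kb outside a flank summit. Strand and starts came from the RefSeq promoter table for 69 Kcn genes. The members and lists were chosen with earlier results of these data known. Named genes were the 4 epithelial channels, the 3 members with most summits in each structural class and each list of Kcn genes, the 10 with the highest density and boundary fold, and members without a summit. Others, such as Kcnk3, Kcnq3, Kcnq5, Kcnab1, Kcnmb3, Kcnd2, Kcnb2, Kcnip4 and the named genes of the ion transport and marker lists, were chosen after their values were seen. Some genes are not reported here. Shares have Wilson intervals, fragments exact Poisson intervals, and ratios exact intervals of 2 Poisson counts. Replicates could not be averaged and no test was made. Alternatives were stricter q, other boundary and flank widths, and lists without single genes. Assignment was checked on simulated data. Python 3.11.15, numpy 2.4.6, pandas 2.3.3, scipy 1.17.1 and matplotlib 3.10.9 were used.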

Additional observations from a re-analysis of the deposited data

How the results depend on the processing

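The ratios of epithelial over neuronal channels stayed above 1 in every alternative run for them. With a −log10 q of at least 10, 26 Kcn genes (27.7%, against 55.6% of all genes) and 5 neuronal channels had a boundary summit. The median density of Kcn genes was 0.0385 per kb with a −log10 q of at least 5 (all genes 0.0881), 0.0284 with at least 10 (all genes 0.0667), and 0.0184 when only summits nearest to the member were counted, an alternative chosen after seeing the data. The window ratio of epithelial over neuronal channels was 7.98 with flanks of 20 kb, 4.49 with 100 kb, 4.86 without Kcnk5, 8.61 without Kcnq1, 3.75 for genes up to 100 kb, 9.22 from medians of single genes and 11.0 from nearest summits. The interior ratio was 19.0 with a −log10 q of at least 10, 7.97 with 1 summit per region, 9.50 without Kcnk5, 38.8 without Kcnq1 and 41.4 from medians. The causes were not tested. No paired analysis was possible because the list has no column per library. Depth limits weak summits, and none can be read per animal.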
